A study of Homo sapiens with 8 samples.

Results

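The genes of G2 phase and of the mitotic spindle were followed in HEK293 cells, an established human line from fetal kidney transformed with adenovirus DNA. The list holds 39 gene symbols, chosen by name with earlier results of these data known. They cover the cyclins and kinase that start mitosis, the mitotic kinases, the spindle checkpoint and the anaphase machinery. Kinesins, spindle and kinetochore proteins, and the proliferation markers TOP2A and MKI67 are also among them. A probe counted for a gene when it had a value in all 8 samples and its annotation named that gene alone. By this rule 38 of the 39 genes were measured, by 91 of the 25094 probes with a value in every sample, among 13469 measured genes in all. UBE2C, a ubiquitin-conjugating enzyme of the anaphase-promoting complex, was not analysed here. Each gene is represented by its probe with the highest mean level, and the other probes, which 12 of the genes have, are given as checks.

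Both groups carried the linearised vector pBudCE4.1 with an intronic transcript of the KLHL29 gene as insert, in sense in 4 samples and in antisense in the other 4. Zeocin at 50 µg/ml selected the transfected cells, which were kept as mixed populations. The 4 samples of a construct were frozen stocks of 1 transfection that were thawed and grown separately, so the p-values measure the spread between these cultures and cannot tell the construct apart from its transfected pool. Untransfected cells and cells with an empty vector were not analysed here, and each difference is given as sense minus antisense. In each construct, samples 1 and 3 were labelled with the dye Cy3 and samples 2 and 4 with Cy5. The series title concerns proliferation of tumorigenic cell lines, and the question here is whether transcripts of dividing cells differ between the orientations.

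Entry into mitosis is set by cyclin B bound to the kinase CDK1, which is held inactive through G2 and released by phosphatases of the CDC25 family. Polo and Aurora kinases then build the spindle, the checkpoint proteins delay anaphase until each kinetochore holds microtubules, and the anaphase-promoting complex with CDC20 marks securin and cyclin B for destruction. Transcripts of most of these genes rise together late in the cell cycle, driven by the MuvB complex with B-MYB and FOXM1, and are held down in resting or arrested cells by the DREAM complex. In a dividing culture their summed RNA level follows how many cells are in G2 and M. In bulk RNA, fewer cells in these phases and less RNA per cell cannot be told apart.

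The DREAM and MuvB complexes are known to act at promoters that hold CCAAT boxes and a further element near the start, the cell cycle genes homology region (CHR). RefSeq promoter sequences of GRCh38.p14, each 250 bases before to 50 bases after a start, were at hand for 33 of the 39 genes, in 42 windows. Letters searched were CCAAT with its complement ATTGG, and TTTGAA with its complement TTCAAA or TTTAAA, which reads alike on both strands, for the CHR. CCAAT stood in 78.6% of the 42 windows, against 34.6% of all 35116 windows in the table. A CHR-type word stood in 76.2% of the windows, against 24.0% of all. Both stood in 61.9% of the windows, against 9.27% of all. These are letter matches in a list of genes picked by function, and base composition was not matched. The 160 bases before the start are shown for CCNB1, PLK1, KIF20A and TOP2A, which varied together between samples, for KIF11 and MKI67, which did not vary with them, and for MAD2L1. KIF20A was added to the set after its values were seen. Capitals mark the searched words.
CCNB1 (chr5:69166990-69167149, plus strand): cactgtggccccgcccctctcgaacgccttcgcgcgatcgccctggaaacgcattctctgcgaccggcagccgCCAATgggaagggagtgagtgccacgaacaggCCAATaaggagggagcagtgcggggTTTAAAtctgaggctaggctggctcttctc
PLK1 (chr16:23678729-23678888, plus strand): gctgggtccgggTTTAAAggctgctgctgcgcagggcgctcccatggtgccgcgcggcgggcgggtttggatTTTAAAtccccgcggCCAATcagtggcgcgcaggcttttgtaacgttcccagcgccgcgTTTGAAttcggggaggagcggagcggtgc
KIF20A (chr5:138178952-138179111, plus strand): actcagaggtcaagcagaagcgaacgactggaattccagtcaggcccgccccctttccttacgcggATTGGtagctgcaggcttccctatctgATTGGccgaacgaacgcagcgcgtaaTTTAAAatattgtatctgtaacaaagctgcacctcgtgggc
TOP2A (chr17:40417897-40418056, minus strand): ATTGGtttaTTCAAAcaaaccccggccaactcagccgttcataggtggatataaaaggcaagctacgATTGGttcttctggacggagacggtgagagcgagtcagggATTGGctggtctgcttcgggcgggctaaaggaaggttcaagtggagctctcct
KIF11 (chr10:92592970-92593129, plus strand): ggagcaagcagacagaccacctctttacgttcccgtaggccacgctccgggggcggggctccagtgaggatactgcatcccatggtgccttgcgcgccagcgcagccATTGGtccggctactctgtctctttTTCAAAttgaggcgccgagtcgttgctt
MKI67 (chr10:128126424-128126583, minus strand): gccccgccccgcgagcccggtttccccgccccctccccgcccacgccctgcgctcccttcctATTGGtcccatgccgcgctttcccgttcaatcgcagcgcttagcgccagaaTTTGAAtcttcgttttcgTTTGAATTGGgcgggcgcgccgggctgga
MAD2L1 (chr4:120066849-120067008, minus strand): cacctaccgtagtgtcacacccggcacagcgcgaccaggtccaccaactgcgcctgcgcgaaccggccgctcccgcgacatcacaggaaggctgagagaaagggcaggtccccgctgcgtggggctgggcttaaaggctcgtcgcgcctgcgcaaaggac
In CCNB1 the boxes lay 87 and 55 bases before the start and TTTAAA lay 30 bases before it. In PLK1 the box lay 73 bases and TTTGAA 29 bases before the start, with TTTAAA farther out at 148 and 88 bases. In the stretch shown for TOP2A, ATTGG lay at 160, 93 and 53 bases. Its TTCAAA lay at 151 bases, farther from the start than the boxes at 93 and 53. KIF20A held ATTGG at 94 and 67 bases and TTTAAA at 41 bases before its start. KIF11 and MKI67 held words of both kinds as well, at 53 and 28 bases in KIF11 and, in MKI67, with ATTGG at 98 and 24 bases and TTTGAA at 47 and 29 bases, the last of which shares 1 base with the nearer box. MAD2L1 had none of the words in the stretch shown. In its whole window, ATTGG lay 229 bases before the start and TTTGAA lay 24 bases after it.

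All 91 probes of the 38 genes were above the inferred detection limit in all 8 samples. The lowest probe mean was 27.97 on the log2 scale and the highest limit of a sample was 26.11. Column medians were equal or nearly equal within samples 1 and 2 and within samples 3 and 4 of each construct, which carry opposite dyes. Whether samples with such like medians shared an array is not given in the sources used here. Of 7 genes known in HEK293 cells, NEFL, NEFM, INA, KRT8, KRT18 and CDH2 were detected in all samples and PAX2 was under the limit in all. Of 11 markers of other cell types 7 had a value, of which CD3E, COL1A1 and GFAP were detected and PTPRC, COL3A1, PECAM1 and MYH7 were under the limit. The summed level of the latter list ran from 30.69 to 31.01 (log2) in sense and from 30.72 to 31.28 in antisense samples.

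Between the constructs, no mitotic gene differed past an adjusted p of 0.05 in limma, which called 17 of 25094 probes (0.0677%). At an unadjusted p under 0.05 limma marked 5 of the 38 genes, 13.2% of them, against 15.0% of all 13469 genes. KIF11, MKI67 and CDC25B were the 3 higher in sense, and MAD2L1 and BIRC5 the 2 lower. In 3 genes, again KIF11, MKI67 and CDC25B, the sense samples all lay above the highest antisense sample, against 3.36% of all genes. In MAD2L1 alone every sense sample lay below, against 3.50% of all genes. The median difference of the 38 genes was 0.03 log2, with 21 above 0, and the median of all genes was -0.05, with 43.3% above 0. The median standard error of a difference was 0.157 log2, so changes of the size seen for most of these genes were not detectable with 4 samples a construct.

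**Figure D1:**
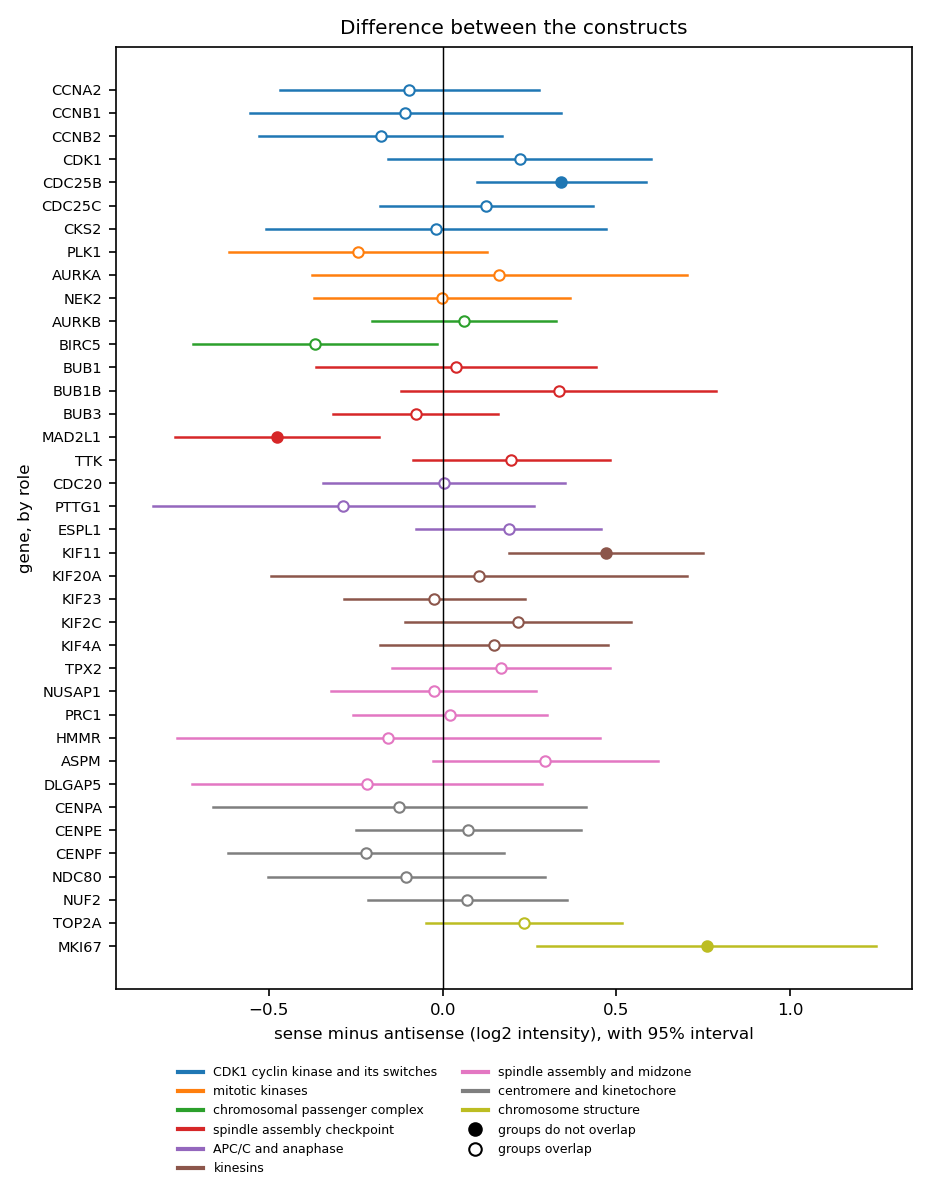
Difference between the constructs (sense minus antisense, log2 intensity, horizontal axis) for the 38 genes ordered by role, with the 95% interval of the limma fit over 4 and 4 samples. Filled points mark the 4 genes whose groups do not overlap, KIF11, MKI67 and CDC25B on the right and MAD2L1 on the left.

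The design of the series leaves out 1 sample of each construct by its coefficient of variation, and the same rule applied here took out sense sample 4 and antisense sample 2. On the 6 samples left, limma called 2 of the 38 genes, against 2.21% of all genes. They were MAD2L1, lower in sense with a difference of -0.55 log2 (SE 0.11, adjusted p = 0.038), and BIRC5, lower with -0.49 (SE 0.10, adjusted p = 0.0454). The rule keeps the samples of a construct that spread least in these same values. The p-values and false discovery rates on the 6 samples are therefore likely too small. In BIRC5 the antisense sample left out is the one that lay among the sense samples. The two-class SAM statistic (significance analysis of microarrays) with a 1.4-fold filter called none of the 38 at a false discovery rate of 5.4%, where it called 1.64% of all genes. At 10.3% SAM called 3, KIF11 and MKI67 higher and MAD2L1 lower, against 6.28% of all genes. This set depends on the probe taken for a gene. Over all 91 probes SAM at 10.3% called 8 (8.79%), 3 higher and 5 lower, against 1621 of all 25094 probes. A probe of CDK1 was among the higher ones. Apart from MAD2L1, the lower ones were all BIRC5 probes of 1 transcript accession, which repeat 1 measurement within a sample. The other KIF11 probe was not called.

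The cyclin and CDK1 genes split in direction. CDC25B, a phosphatase that activates cyclin-CDK complexes at the start of mitosis, read 30.90, 31.07, 30.97 and 30.95 in sense samples 1 to 4 and 30.54, 30.70, 30.62 and 30.66 in antisense samples 1 to 4 (log2 intensity). The groups did not overlap, and each spread over less than 0.2 log2. The difference was 0.34 (SE 0.11, 1.27-fold, limma adjusted p = 0.278) and was alike within Cy3, 0.35, and within Cy5, 0.33. CDK1, the kinase itself, read 32.78, 32.56, 32.81 and 32.05 in sense and 32.10, 32.34, 32.39 and 32.48 in antisense samples. Sense samples 1 to 3 lay above all antisense samples and sense sample 4 below all of them, and the difference was 0.22 (SE 0.17, adjusted p = 0.526). The other 9 probes of CDK1 were all higher in sense too, the 10 together by 0.12 to 0.67, and 1 of them had an unadjusted p under 0.05. That probe was the one at 0.67, and the rest reached at most 0.30. The 10 probes carry 1 transcript accession and add no cultures. CCNB1, cyclin B1, read 33.80, 33.56, 33.94 and 32.80 in sense and 33.74, 33.03, 34.00 and 33.76 in antisense samples. Its lowest values were those of sense sample 4 and antisense sample 2, the groups overlapped, and the difference was -0.11 (SE 0.20, adjusted p = 0.812). Cyclins CCNB2 (-0.18) and CCNA2 (-0.10), the CDK-binding subunit CKS2 (-0.02) and the phosphatase CDC25C (0.13) had overlapping groups as well, with adjusted p from 0.580 to 0.974. The 10 probes of CCNA2 ran from -0.13 to 0.03, and 3 of them were above 0.

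The mitotic kinases overlapped between the constructs. PLK1, the polo kinase that promotes CDK1 activation and spindle assembly, read 33.84, 33.86, 33.83 and 33.26 in sense and 33.99, 33.58, 34.04 and 34.16 in antisense samples. Sense samples 1 to 3 lay within 0.03 of each other and sense sample 4 stood 0.57 below the lowest of them. The difference was -0.24 (SE 0.17, adjusted p = 0.482), and the second, dimmer probe gave 0.10, of opposite sign. AURKA, the kinase of the spindle poles, read 32.31, 32.21, 32.10 and 31.05 in sense and 31.68, 31.37, 31.96 and 32.01 in antisense samples. Its sense sample 4 was again the lowest of all 8, and the difference was 0.16 (SE 0.24, adjusted p = 0.758). NEK2, which separates the centrosomes, differed by -0.0018 (SE 0.17), and its other probe gave -0.23. In the chromosomal passenger complex, which corrects faulty kinetochore attachments, the kinase AURKB differed by 0.06 (SE 0.12).

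BIRC5, survivin, the passenger subunit that targets the complex to chromosomes, read 35.32, 35.47, 35.37 and 35.32 in sense and 35.78, 35.33, 35.94 and 35.91 in antisense samples. Antisense samples 1, 3 and 4 lay above all sense samples, while antisense sample 2 lay among them. The difference was -0.37 (SE 0.16, unadjusted p = 0.0419, limma adjusted p = 0.341). All 10 BIRC5 probes were lower in sense, with differences of -0.46 to -0.29, and 8 of them had an unadjusted p under 0.05. The 10 probes carry 1 transcript accession, so they repeat the measurement within a sample and add no cultures.

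Among the checkpoint genes the directions differed. MAD2L1, the MAD2 protein that inhibits CDC20 until kinetochores are attached, read 32.91, 33.07, 32.80 and 32.88 in sense and 33.41, 33.12, 33.47 and 33.56 in antisense samples. Every sense sample lay below every antisense sample, by 0.05 at the closest, where sense sample 2 met antisense sample 2. The difference was -0.48 (SE 0.13, 1.39-fold lower, limma adjusted p = 0.258), with -0.58 within Cy3 and -0.37 within Cy5. BUB1B, BubR1 of the same inhibitory complex, read 31.31, 30.58, 31.40 and 30.30 in sense and 30.54, 30.63, 30.43 and 30.66 in antisense samples. The Cy3 sense samples 1 and 3 were the highest of all 8, and the Cy5 sense samples lay with the antisense samples or below. The difference was 0.33 (SE 0.20, adjusted p = 0.428), made of 0.87 within Cy3 and -0.20 within Cy5. The interaction of construct with dye for BUB1B was -1.08 (unadjusted p = 0.00142, limma adjusted p = 0.946), and no mitotic gene passed the adjusted threshold for it. The kinases TTK (0.20, SE 0.13) and BUB1 (0.04, SE 0.18) and their partner BUB3 (-0.08, SE 0.11) had overlapping groups. The 3 probes of BUB3 ran from -0.12 to 0.11, with 1 above 0. Of the anaphase genes, CDC20, the activator of the anaphase-promoting complex, differed by 0.0027 (SE 0.16), securin PTTG1 by -0.29 (SE 0.25) and separase ESPL1, which cuts cohesin, by 0.19 (SE 0.12), with adjusted p of 0.445 to 0.995.

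**Figure D2:**
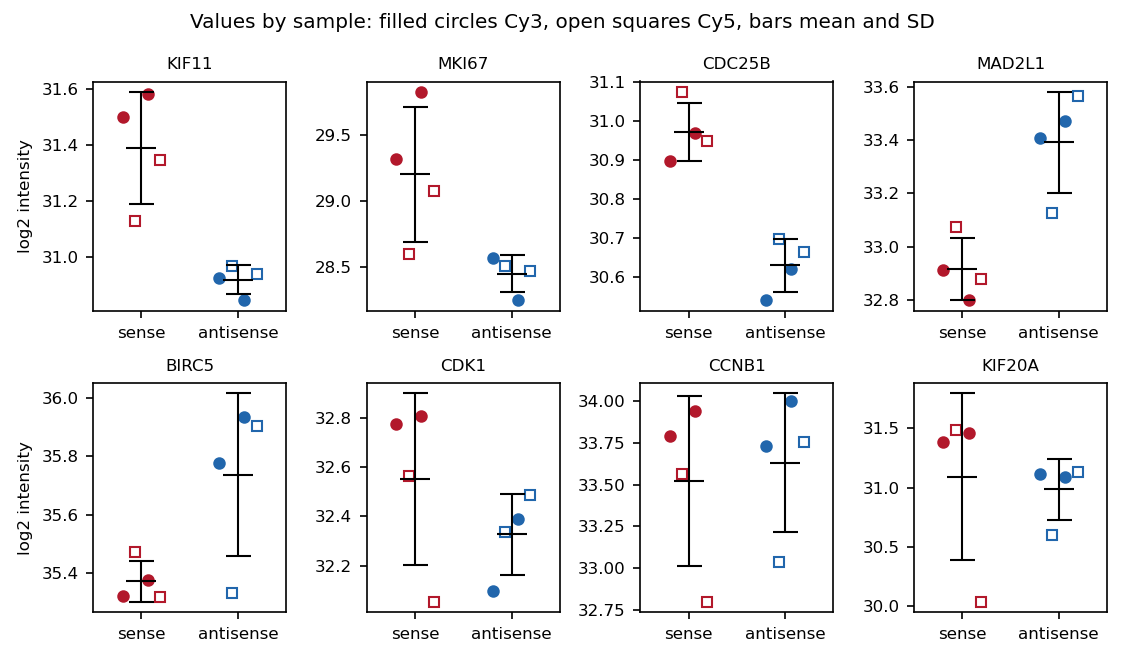
Log2 intensity (vertical axes, each on its own range) of 8 genes in the 4 sense and 4 antisense samples, with the mean and SD of each construct. KIF11, MKI67, CDC25B and MAD2L1 do not overlap between constructs; antisense sample 2 sits with the sense samples in BIRC5, and in CDK1, CCNB1 and KIF20A sense sample 4 is the lowest point of all 8.

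The kinesins gave the smallest p of the list. KIF11, Eg5, the motor that pushes the spindle poles apart, read 31.50, 31.13, 31.58 and 31.35 in sense and 30.93, 30.97, 30.85 and 30.94 in antisense samples. The groups did not overlap, sense sample 2 came nearest to antisense, and the antisense samples lay within 0.12 of each other. The difference was 0.47 (SE 0.13, 1.39-fold, unadjusted p = 0.00353, limma adjusted p = 0.252), with 0.66 within Cy3 and 0.28 within Cy5. The other KIF11 probe, of the same transcript accession, gave 0.08. KIF20A, a motor of the central spindle and cytokinesis, read 31.38, 31.49, 31.46 and 30.04 in sense and 31.12, 30.60, 31.09 and 31.14 in antisense samples. Sense samples 1 to 3 lay above all antisense samples, and sense sample 4 was 1.42 below the median of the other 3 sense samples. The difference was 0.10 (SE 0.27, adjusted p = 0.868), and the 10 probes gave 0.06 to 0.13. The chromokinesin KIF4A (0.15, SE 0.15), the microtubule depolymerase KIF2C (0.22, SE 0.15) and the cytokinesis motor KIF23 (-0.02, SE 0.12) overlapped between constructs.

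The proliferation markers were both higher in sense on average. MKI67, the Ki-67 protein that coats mitotic chromosomes, read 29.32, 28.60, 29.83 and 29.07 in sense and 28.56, 28.50, 28.24 and 28.47 in antisense samples. No values overlapped, but sense sample 2 stood only 0.03 above antisense sample 1, and the sense samples spread over more than 1 log2. The difference, the largest of the 38, was 0.76 (SE 0.22, 1.69-fold, unadjusted p = 0.00584, limma adjusted p = 0.269), with 1.17 within Cy3 and 0.35 within Cy5. TOP2A, topoisomerase II alpha, which untangles sister chromatids, read 32.24, 32.19, 32.30 and 31.83 in sense and 31.92, 31.72, 31.98 and 32.01 in antisense samples. Sense samples 1 to 3 lay above all antisense samples, sense sample 4 fell among them, and the difference was 0.23 (SE 0.13, adjusted p = 0.395).

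Spindle and kinetochore genes showed no group that stood apart. ASPM, a spindle pole protein known from microcephaly, read 32.74, 32.42, 32.69 and 32.30 in sense and 32.30, 31.74, 32.59 and 32.34 in antisense samples. The groups overlapped, with antisense sample 2 the lowest of all 8, and the difference was 0.30 (SE 0.15, adjusted p = 0.377), with 0.32 by the other probe. TPX2, which activates AURKA (0.17), PRC1, the bundler of the midzone (0.02), NUSAP1, a microtubule-binding protein (-0.03), HMMR, of the spindle poles (-0.16), and DLGAP5, which stabilises kinetochore fibres (-0.22), had adjusted p of 0.561 to 0.947. The centromeric histone CENPA (-0.12), the kinetochore motor CENPE (0.07), CENPF (-0.22) and the microtubule-binding subunits NDC80 (-0.10) and NUF2 (0.07) had adjusted p of 0.548 to 0.821. The second, dimmer probe of CENPF gave 0.19, of opposite sign. That of NDC80 gave -0.10, and the 10 probes of CENPE gave 0.07 to 0.20.

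**Figure D3:**
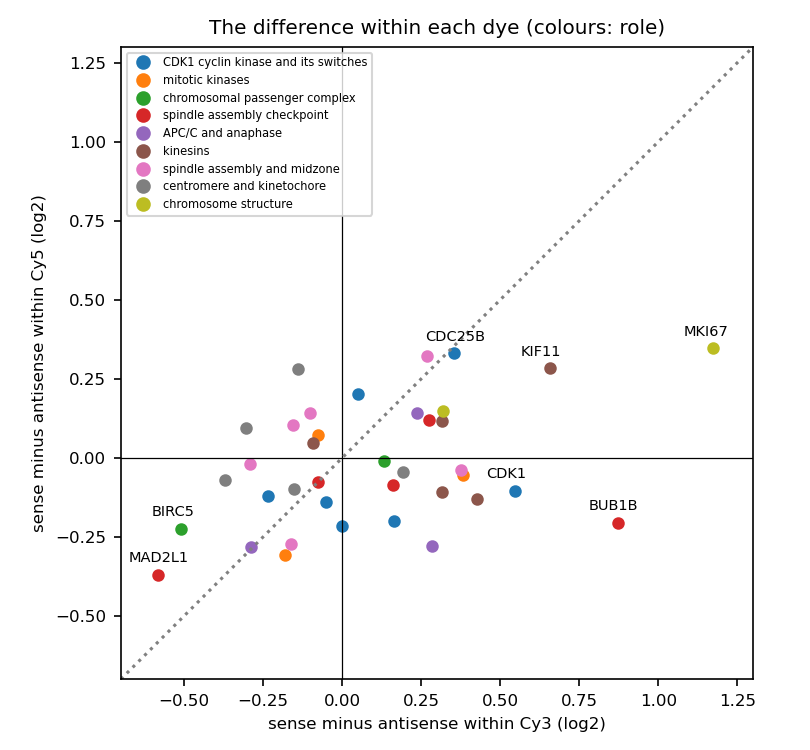
Sense minus antisense (log2) within the Cy3 samples (horizontal axis) against that within the Cy5 samples (vertical axis) for the 38 genes, 2 samples of each construct per dye, with the line of equal values dotted. CDC25B lies near that line, MKI67 and KIF11 are higher in both dyes but more so in Cy3, MAD2L1 and BIRC5 are lower in both, and BUB1B and CDK1 are above 0 within Cy3 only.

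Within the 4 Cy3 samples, limma called 7 of the 38 genes, BUB1B, CDK1, KIF11, KIF4A and MKI67 higher and BIRC5 and MAD2L1 lower, against 12.6% of all genes. Within the 4 Cy5 samples it called none, against 0.0148% of all genes. Sense sample 4 and antisense sample 2 both belong to the Cy5 set.

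Larger shifts, shared by most of the 38 genes, lay between samples of the same construct. In sense sample 4 the level of 29 of the 38 genes was the lowest of the 4 sense samples (76.3%), against 33.0% of all genes, and in antisense sample 2 it was the lowest of the 4 antisense samples for 28 genes (73.7%), against 33.7% of all. For 23 genes (60.5%) both held, against 17.1% of all genes and 19.7% of the genes detected in every sample. The genes of this list are well expressed, with 25 of the 38 in the highest of 4 equal classes of mean level, and over all genes of that class the shares were 45.5% for sense sample 4 and 47.8% for antisense sample 2. The other Cy5 samples were not low: sense sample 2 held the lowest level for 3 genes and antisense sample 4 for none.

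**Figure D4:**
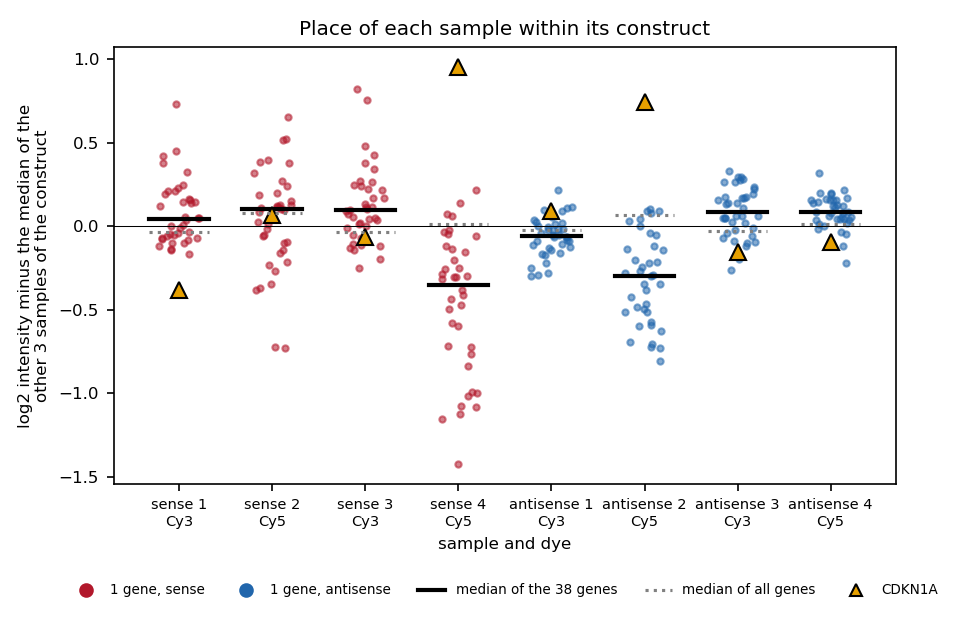
Log2 intensity of each of the 38 genes minus the median of the other 3 samples of its construct (vertical axis), by sample; black bars are the median of the 38 genes, dotted lines the median of all genes, and triangles CDKN1A. The medians of the 38 genes are -0.35 in sense sample 4 and -0.30 in antisense sample 2. CDKN1A is highest within its construct in these samples, as are 28.5% of all genes in sense sample 4 and 41.5% in antisense sample 2.

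Against the median of the other 3 samples, the median of the 38 genes was -0.35 log2 in sense sample 4 and -0.30 in antisense sample 2. In the other 6 samples it ran from -0.06 to 0.10, and the median of all genes was 0.01 in sense sample 4 and 0.07 in antisense sample 2. Over the genes in the highest of the 4 classes of mean level, which holds 25 of the 38, these medians were -0.09 and -0.07. In sense sample 4, 14 genes (36.8%) lay more than 0.5 below, against 16.4% of all genes and 18.5% of the detected ones. The lowest were KIF20A at -1.42, AURKA at -1.15, HMMR at -1.12, DLGAP5 at -1.08, CKS2 at -1.08, BUB1B at -1.02 and CCNB1 at -0.998, followed by PTTG1 at -0.99 and CENPA at -0.84. In antisense sample 2, 11 genes (28.9%) did so, against 9.05% of all genes and 10.0% of the detected ones, led by HMMR at -0.81, CENPF at -0.73, CCNB1 at -0.72, DLGAP5 at -0.70 and CCNA2 at -0.69. By role, all 3 mitotic kinases and all 3 anaphase genes were at their lowest in both samples. The kinetochore genes were at their lowest in antisense sample 2 in 5 of 5 cases and in sense sample 4 in 4 of 5. Other roles were mixed. In sense sample 4 it was 6 of 7 cyclin and CDK1 genes, 4 of 6 spindle genes, and 3 of 5 each of checkpoint genes and kinesins. In antisense sample 2 it was 5 of 7, 5 of 6, 3 of 5 and 2 of 5, with 2 kinesins at their highest. Both passenger genes were lowest in sense sample 4 and 1 of them in antisense sample 2. Over all genes the shares were 33.0% and 33.7%. CDC25B, TTK, KIF11 and MKI67 were at their lowest in neither, and PRC1 was at its highest in sense sample 4. Across the 38 genes the deviations of sense sample 4 and antisense sample 2 correlated at Pearson r = 0.34 (Spearman rho 0.31), and across all genes at 0.30. These points share their samples and are given as a description.

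**Figure D5:**
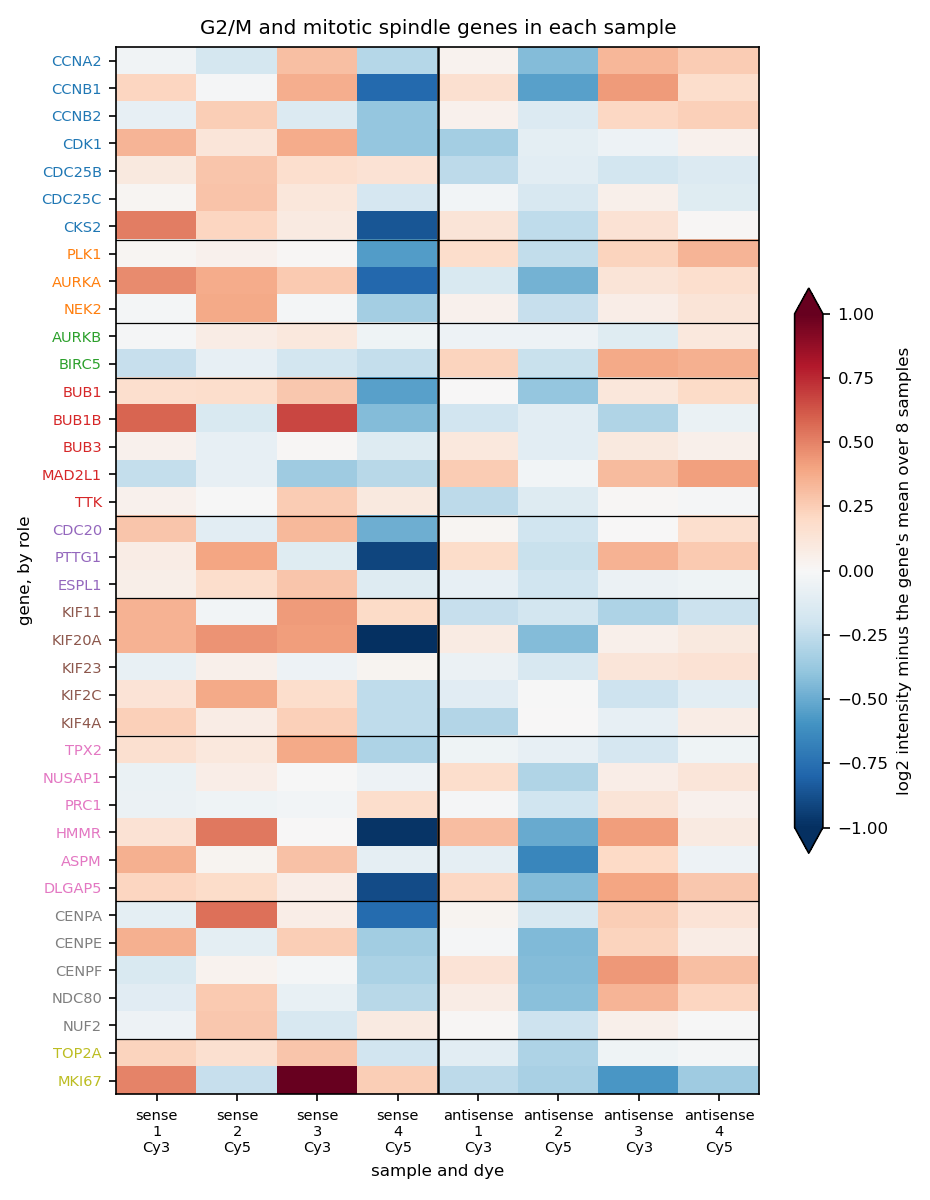
Log2 intensity of the 38 genes minus each gene's own mean over 8 samples (colour, red above and blue below, colour range -1 to 1) in the 4 sense samples on the left and the 4 antisense samples on the right, with genes grouped by role and named in the colour of their role. The column of sense sample 4 is blue for most genes and that of antisense sample 2 for most as well, while CDC25B is red in all 4 sense columns and blue in all 4 antisense columns.

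CDKN1A, the CDK inhibitor p21 that acts upstream of DREAM, read 31.19, 31.57, 31.51 and 32.46 in sense and 30.26, 30.92, 30.11 and 30.17 in antisense samples. It was higher in all sense than in all antisense samples, by 1.32 (SE 0.22, limma adjusted p = 0.0999). Within its construct CDKN1A was highest in sense sample 4, as were 28.5% of all genes, and in antisense sample 2, as were 41.5%. On the 6 samples without sense sample 4 and antisense sample 2, the difference was 1.24 (SE 0.13, limma adjusted p = 0.00484), and SAM called CDKN1A at 5.4%. The median levels of the 38 genes were 32.26, 32.30, 32.18 and 31.69 in sense samples 1 to 4. In antisense samples 1 to 4 they were 32.08, 31.76, 32.24 and 32.22. The part of CDKN1A in the level of the mitotic genes was not tested.

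The promoter words were set beside these deviations as a description. The 23 genes with both kinds of word in the same window had a median deviation of -0.41 in sense sample 4, from -1.42 to 0.22. The other 10 genes with a sequence, among them CDC25B with each kind in a different window, had a median of -0.28, from -1.02 to 0.14. KIF20A and PRC1, at the lower and upper end, both belong to the 23.

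After the construct and dye means were removed, most of the genes varied together across the 8 samples. The median Pearson correlation over the 703 pairs was 0.57, and 22.6% of pairs exceeded 0.8. Over all pairs of the 13469 genes the median was 0.01 and 5.76% of pairs exceeded 0.8. All pairs rest on the same 8 samples, and sense sample 4 and antisense sample 2 weigh in every pair. PLK1, CCNB1 and BUB1 followed the rest most closely, with median correlations of 0.76, 0.75 and 0.74 with the other genes. Genes that varied most alike were BUB1 and TOP2A at 0.995, NEK2 and HMMR at 0.991, and CDK1 and KIF4A at 0.990. PRC1, MKI67 and KIF11 had negative medians of -0.15, -0.23 and -0.24. MKI67 and KIF11 varied together at 0.95.

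The wider mitotic machinery was read from 8 further lists, with 110 of 112 genes measured. None passed an adjusted p of 0.05 in limma, 12 had an unadjusted p under 0.05 (10.9%, against 15.0% of all genes), and the smallest adjusted p was 0.249. The median difference was -0.02, with 52 of the 110 above 0. In sense sample 4, 37.3% of these genes were at their lowest within the construct, against 33.0% of all genes and the same 37.3% of the genes detected in every sample. In antisense sample 2 the share was 53.6%, against 33.7% of all genes and 38.7% of the detected ones. The shares differed by list. Of the 10 further G2/M transcripts, 9 (90%) were at their lowest in sense sample 4, and their median deviation there was -0.37. In the remaining lists that share ran from 10% to 46.7%. In antisense sample 2 it was 6 of 10 for the further G2/M transcripts and 20% to 66.7% in the remaining lists. In 6 of the 110 genes all sense samples lay above all antisense samples and in 1 all lay below, against 3.36% and 3.50% of all genes. The genes named from each further list are up to 3 with its smallest unadjusted p in limma, so they are its extremes and not typical of it. Among kinetochore subunits, KNTC1, the Rod protein that recruits the checkpoint, was higher in all sense than in all antisense samples by 0.53 (SE 0.14). CENPT was higher by 0.38 on average, and NSL1 of the MIS12 complex differed by -0.41. FBXO5, the inhibitor EMI1 of the anaphase-promoting complex, was higher in all sense samples by 0.37 (SE 0.11), while the subunits CDC27 and ANAPC5 differed by -0.50 and -0.28. The motors KIF20B and KIFC1 were higher in all sense samples by 0.62 (SE 0.20) and 0.33 (SE 0.13), and the cytokinesis kinase CIT differed by -0.24.

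Genes of cohesin and condensin gave -0.55 for PDS5A, 0.24 for NCAPD2 and 0.20 for SMC1A. At the centrosome and spindle pole, STIL, needed for centriole duplication, differed by 0.54, NUMA1 by 0.35 and CKAP5 by 0.23. Of further G2/M transcripts, the kinase MELK differed by 0.33, GTSE1 by 0.29 and the CENPA chaperone HJURP, higher in all sense samples, by 0.29. Of the regulators, LIN52, a MuvB subunit, was higher in all sense samples by 0.42 (SE 0.19), MYBL2, B-MYB, differed by 0.35 and RBBP4 by -0.18. Of the G2 brakes, WEE1 and PKMYT1, which inhibit CDK1, differed by 0.34 and -0.21, and CHEK1 by -0.12. CDC25A, a further CDK-activating phosphatase, was the gene with all sense samples below, by a difference of -0.08 (SE 0.10), and is named for that after its values were seen. In sense sample 4, 5 of the 10 regulators and 3 of the 6 G2 genes were at their highest of the sense samples, against 28.5% of all genes. In antisense sample 2 it was 5 of 10 and 1 of 6, against 41.5% of all genes.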

How the data were processed

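Expression was measured on Agilent arrays in 8 samples, 4 per construct, named by the orientation and replicate number in their titles. Per the submitters' processing notes, Agilent Feature Extraction 9.5 read the images. Per the design text, the authors kept probes detected above the negative controls plus 3 SD in all or in none of a construct's samples and scaled each sample by its 40% trimmed mean. The deposited values are linear intensity values whose absolute scale is unknown, and they were used as log2 without further scaling. A detection limit per sample was worked out from which probes that filter had kept.

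limma 3.58.1 in R 4.3.3 (lmFit, eBayes with trend) fitted construct and dye to 25094 probes, with Benjamini-Hochberg adjustment over all of them. All adjusted p-values are limma's, two-sided. SAM was rewritten with all 20 label permutations of 3 against 3 samples, where the design text states 100 permutations, and reached false discovery rates of 5.38% and 10.2%. The code was tested on simulated data. Genes were named from the platform annotation (13453 of 13469 matched a current table). The number of samples limits the precision. Promoters came from RefSeq, GRCh38.p14. The genes and lists were chosen with earlier results of these data known. All genes of the list were named by role, with values by sample for the 8 with the smallest p, for CCNB1, CDK1, PLK1, AURKA, TOP2A and MKI67 and for those called by SAM (KIF20A was added). Of each further list up to 3 genes were named, those with the smallest p in these same data (CDC25A was added). Replicate numbers did not pair the samples: same-numbered deviations correlated at 0.227, 0.0893, 0.220 and -0.0598.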

Additional observations from a re-analysis of the deposited data

Results flagged for a closer look

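Each of the 38 genes was examined in its 4 sense and its 4 antisense samples for 1 sample far from the other 3, by the gap to the nearest sample over the whole range. The ratio passed Dixon's 95% critical value in 7 of 76 groups (9.21%), against 6.69% of the groups of all genes and 7.48% of those of the genes detected in every sample; chance alone gives about 1 in 20. The 76 groups share the same 8 samples. In 5 groups sense sample 4 was the low one: PLK1 with a ratio of 0.953, KIF20A with 0.928, BUB1 with 0.872, DLGAP5 with 0.867 and AURKA with 0.833. For PRC1 the same sample was the high one, with 0.861. In the antisense group, sample 2 was the low one for KIF20A, with 0.919. These are the 2 samples that the rule of the series' design leaves out.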

How the results depend on the processing

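In each of 22 alternatives the difference of 13 of the 38 genes kept its sign, higher in sense for CDC25B, CDC25C, TTK, TOP2A, KIF11, KIF2C, ASPM, ESPL1 and MKI67 and lower for CCNB2, MAD2L1, BIRC5 and PTTG1. Not all of the 22 could change a sign. In this balanced design, dropping the trend or dye term, adding the replicate block or keeping detected probes left each difference as it was. Limma and SAM on the 6 samples share the same differences. The choice of probe matters only for the 12 genes with several. The count of mitotic genes called by limma, 0 of 38, became 7 within Cy3 and 2 on the 6 samples of the stated design, and SAM at 10.3% called 3. It was 0 in all 8 fits that left out 1 sample. The count over the further mitotic lists, 0 of 110, became 17 within Cy3, where 12.6% of all genes were called. With SAM at 10.3% it became 4, where 6.28% of all genes were called. SAM at 10.3% and all alternatives for the further lists were chosen after seeing the data.

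The count over all probes, 17, became 10 without the trend, 7 with the replicate block, 2888 within Cy3, 4 within Cy5, 549 in limma on the 6 samples, 453 and 1621 in SAM at 5.4% and 10.3%, 1 on detected probes only and 5 with a pseudocount. Leaving out 1 sample gave 4 to 20. The replicate block changed no call of a mitotic gene. The causes were not tested.

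The median difference of the 38 genes ran from -0.05 within Cy5 to 0.14 without sense sample 4, and the number above 0 from 15 to 27. Subtracting each sample's median over the detected probes moved the median of all genes from -0.05 to -0.09 and that of the mitotic genes to -0.01. Quantile normalization moved them to -0.01 and 0.09.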
